A study of Mus musculus with 64 samples.

Results

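The sulfotransferase (Sult) and UDP-glucuronosyltransferase (Ugt) genes of the mouse liver, with Papss2, were followed across diet and genotype. The gene table held 44 of them once 6 pseudogenes were left out, among 53008 gene names in all, and the 25 with a mean of at least 0.5 counts-per-million (CPM) over the 16 libraries are described here. They comprised 7 of 9 Ugt1a genes, 8 of 10 Ugt2 genes, both Ugt3a genes, 7 of 21 Sult genes and Papss2. The choice used the level over all libraries and no contrast, and all 25 passed the filter on low counts of the test.

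RNA of whole liver had been sequenced in 4 groups of 4 libraries. They came from HuMgat2 mice given a high-fat diet (HFD), HuMgat2 mice given chow, wild-type (WT) mice given HFD and WT mice given chow, with 16 weeks of feeding in each. HuMgat2 mice are humanized animals that express human MOGAT2, an enzyme that makes diacylglycerol from monoacylglycerol, while WT mice carry the mouse gene. The labels used here name no promoter for human MOGAT2 and no strain, age or hour of collection, so a difference in any of these between groups cannot be told apart from diet or genotype. Nothing in the labels states that each library came from its own animal, and the p-values then measure only the spread between these libraries.

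Conjugation is the step in which the liver joins a water-soluble group to a steroid, bile acid, thyroid hormone, bilirubin or drug so that it can leave in bile or urine. UGT enzymes sit in the endoplasmic reticulum and transfer glucuronic acid from UDP-glucuronic acid, whereas SULT enzymes work in the cytosol and transfer sulfate from the activated donor PAPS. Their genes are known in liver as targets of the xenobiotic receptors CAR, PXR and AHR and of the stress factor NRF2, and several differ between male and female mice.

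Libraries held 12422647 to 25812129 counts. Albumin (Alb), a defining transcript of hepatocytes, was present in all, at 8502 to 60179 CPM. WT HFD library 4 stood apart: it was the shallowest and lowest in albumin (at least 32590 CPM in the other 15), and the lowest of the 16 libraries for 17 of the 25 genes. Its 8 hepatocyte markers summed to 32050 CPM against 58781 to 65235 CPM in the other WT HFD libraries, and its 6 Kupffer cell markers to 294 CPM against 79.9 to 112 CPM. Results that rest on it are given with and without it. The mouse gene Mogat2 had 0 to 12 counts in any library and human MOGAT2 was not measured here, so the genotype could not be checked from expression. Xist stayed at or below 1.58 CPM and Ddx3y, a Y-linked gene, at 59.8 to 82.9 CPM in all 16 libraries.

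The Ugt1a genes lie in 164.6 kb of chromosome 1 (GRCm39, 87983133 to 88147724, plus strand). Each has exon bases of its own, and all 9 share 1311 exon bases in 4 stretches at the far end. Ugt1a7c also shares 127 exon bases with Ugt1a6b and 859 with Ugt1a6a. Read pairs were counted per gene name without strand, and the recorded command has no option that credits a pair to several genes, so pairs lying wholly in the shared stretches carried no Ugt1a count. The counts of the 7 described Ugt1a genes thus came mainly from 385 to 2142 bases that are annotated to 1 gene alone. Ugt1a1 had the fewest such bases, 385, because a transcript on the opposite strand covers 41.5% of its exons. In Ugt1a6a, 619, 255 and 1046 of its own bases lie between the stretches that all 9 genes share. In Ugt1a7c, 998 lie beyond the last of these stretches. Whether RNA of other Ugt1a genes was counted at such bases was not tested.

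**Figure D1:**
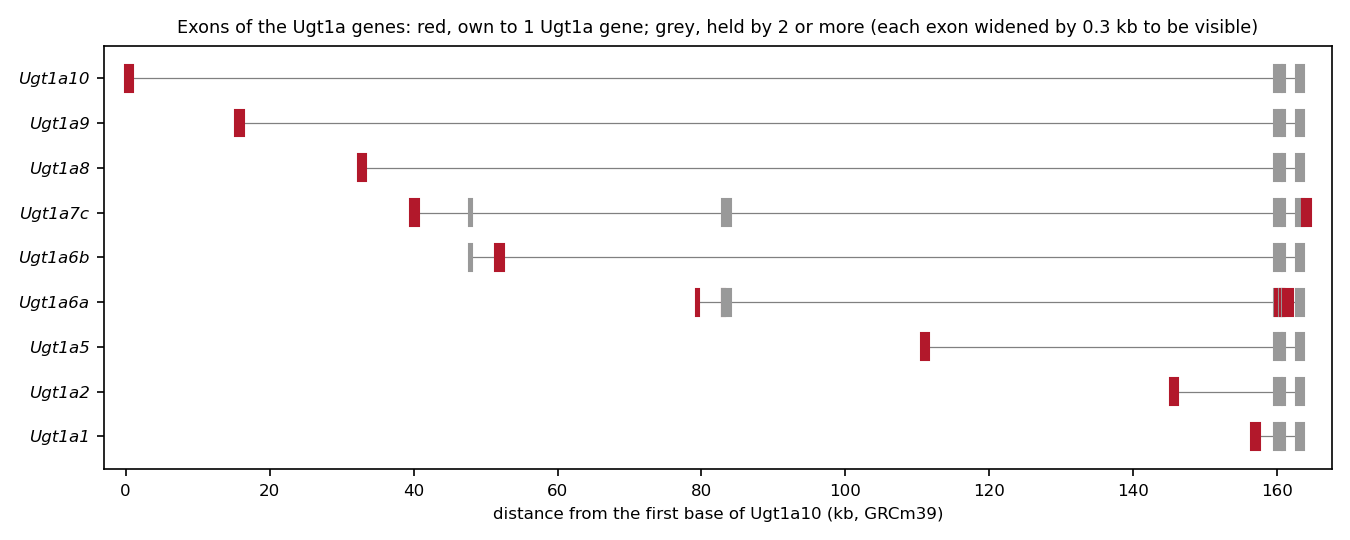
Exons of the 9 Ugt1a genes against distance from the first base of Ugt1a10 in kb (GRCm39), 1 row per gene. Red exons belong to 1 Ugt1a gene and grey exons are held by 2 or more; every exon is drawn 0.3 kb wider than it is, and the stretches held by all 9 genes begin 159.6 kb from the start.

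A stretch of chromosome 5 holds 10 of the 25 genes, which lie within 679.3 kb (GRCm39, 87037626 to 87716886): the 8 Ugt2 genes, and beside them Sult1b1 and Sult1d1. Ugt2b5 and Ugt2b38 are close copies, and 34.8% of the 50-base windows of the Ugt2b5 transcripts also occur in Ugt2b38. Their levels stood in nearly the same ratio in every library, with Ugt2b5 at 4.18 to 5.0 times Ugt2b38. Whether reads of this pair were credited to the wrong copy was not tested. Averaged over all libraries and per kb of exon, Ugt2b5 was the highest of the 25 genes at 340.1 CPM per kb, followed by Ugt2b36 at 196 and Sult2a8 at 156 CPM per kb, and Sult5a1 the lowest at 1.02 CPM per kb. On the same scale Ugt1a1, which conjugates bilirubin, stood at 55.2 CPM per kb, or at 319 CPM per kb of the bases that are its own.

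The stretch before the start of the Ugt2 genes shows how near these copies are, and is printed for the genes that the diet results turn on. RefSeq promoter windows (build GRCm38.p6) were found for 22 of the 25 genes. The last 60 bases before the start follow, on the minus strand of chromosome 5, with capitals marking AGGTCA, the hexamer bound by many nuclear receptors.
Ugt2b5 (chr5:87140341-87140400): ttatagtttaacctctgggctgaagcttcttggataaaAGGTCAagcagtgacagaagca
Ugt2b38 (chr5:87424204-87424263): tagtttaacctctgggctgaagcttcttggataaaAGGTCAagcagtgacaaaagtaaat
Ugt2b36 (chr5:87092556-87092615): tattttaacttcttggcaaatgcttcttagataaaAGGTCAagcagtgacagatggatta
Ugt2b1 (chr5:86926504-86926563): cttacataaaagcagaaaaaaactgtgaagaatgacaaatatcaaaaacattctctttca
Ugt2a3 (chr5:87337196-87337255): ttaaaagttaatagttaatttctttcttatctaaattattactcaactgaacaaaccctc

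Ugt2b5, Ugt2b38 and Ugt2b36 carry the hexamer 22, 25 and 25 bases before the start, whereas the windows of Ugt2b1 and Ugt2a3 hold none. The Ugt2 genes not printed did not divide by diet result. Ugt2b37 has it 39 bases before the start, is 79.6% identical to Ugt2b5 and was called in no comparison. Ugt2b34 has none in its window and fell on HFD in WT. Aligned over 250 bases, the Ugt2b5 window was identical at 84.8% of its positions with Ugt2b38, 64.0% with Ugt2b36, 52.8% with Ugt2a3 and 52.0% with Ugt2b1. Searched on both strands of the 250 bases before each start, AGGTCA was in 10 of 25 windows of the described genes and in 14% of all 32851 windows. Ugt2b5, Ugt2b38, Ugt2b36 and Ugt2b37 carry it in a stretch that these copies share, so their windows are not separate finds. The other motifs searched were GCGTG, the core that AHR binds (3 of 25 windows, 28.2% of all), TTCNNNGAA, bound by STAT5 (1 of 25, 7.02% of all), and TGACNNNGC, the core of the antioxidant element that NRF2 binds (0 of 25, 10.2% of all). DR1 and DR4, direct repeats of the hexamer that differ in spacing and overlap it by construction, were in 0 of 25 windows, and in 0.0335% and 0.0152% of all. Ugt1a9, the Ugt gene with the largest difference, has the hexamer 201 bases before its start, in capitals in its window on the plus strand.
Ugt1a9 (chr1:88070529-88070778): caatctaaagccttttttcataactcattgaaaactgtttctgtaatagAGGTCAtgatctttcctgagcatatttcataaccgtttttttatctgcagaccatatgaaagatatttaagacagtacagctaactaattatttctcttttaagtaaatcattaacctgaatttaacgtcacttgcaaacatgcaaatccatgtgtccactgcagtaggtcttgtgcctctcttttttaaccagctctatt

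Which conjugation genes differed with diet in each genotype was asked first. On HFD, WT livers had less RNA of 11 of the 17 Ugt genes and more of 2 of the 7 Sult genes, whereas HuMgat2 livers had less of 4 Ugt2 genes, of the bile acid sulfotransferase Sult2a8 and of Papss2, and more of Sult1c2. Levels are CPM scaled by the TMM method, and verbs of change are kept for genes called by edgeR, at a quasi-likelihood adjusted p under 0.05 over the 17318 genes tested. In HuMgat2 mice 1 of 25 genes rose and 6 fell, against 7.56% and 6.4% of all tested genes, and 3 fell where libraries were scaled by their totals alone, without TMM. In WT mice 2 of 25 rose and 11 fell, against 8.37% and 6.74% of all, and without library 4 the counts were 2 and 10, against 7.69% and 7.01% of all. The single rise in HuMgat2 was lost without HuMgat2 chow library 15. In WT the rise of Sult1b1 was lost without any 1 WT library other than library 4, and that of Sult1d1 without WT chow library 6. The HFD and chow libraries did not overlap for 8 of the 25 genes in HuMgat2 and 10 in WT, against 21% and 18.2% of all. The median log2 change of the 25 genes was -0.19 in HuMgat2 (-0.01 over all tested genes) and -0.51 in WT (0.03 over all). Ugt2b5 and Ugt2b38, the near copies, fell in both genotypes; they made 28.6% of the 7 genes changed in HuMgat2 and 15.4% of the 13 changed in WT. In whole-liver RNA, fewer cells of a type and less RNA per cell cannot be told apart.

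Summed over the 17 Ugt genes, the level was 2456 to 2624 CPM in HuMgat2 HFD livers, against 3071 to 4068 CPM in HuMgat2 chow livers. The same sum was 1465 to 3187 CPM in WT HFD livers, against 3390 to 3930 CPM in WT chow livers, so the diets did not overlap in either genotype. The 8 hepatocyte markers summed to 32050 to 65235 CPM on HFD and 76068 to 91931 CPM on chow in WT. Not all of them differed that way. Alb (8502 to 39187 CPM on HFD, 46764 to 60179 CPM on chow), Ttr and Hnf4a were lower on HFD without overlap. Apoa1 (3287 to 4848 CPM on HFD, 2951 to 3415 CPM on chow), Apob, Tat, Cps1 and Fabp1 overlapped between the WT diets. In HuMgat2 the sum overlapped between the diets, with 69602 to 78181 CPM on HFD and 58017 to 91579 CPM on chow. The 7 stellate cell markers summed to 507 to 575 CPM in HuMgat2 HFD livers and 193 to 335 CPM in HuMgat2 chow livers, and to 277 to 381 CPM in WT HFD livers and 226 to 306 CPM in WT chow livers. Before TMM scaling, 6 Kupffer cell markers summed to 96.3 to 128 CPM on HFD and 69.0 to 76.9 CPM on chow in HuMgat2. There 5 endothelial markers summed to 241 to 275 CPM on HFD and 164 to 209 CPM on chow. The 6 cholangiocyte markers summed to 37.3 to 49.9 CPM on HFD and 26.45 to 35.7 CPM on chow. Of these only Spp1 was higher on HFD without overlap (25.2 to 39.5 CPM, against 13.1 to 17.9 CPM on chow). Sox9 was lower on HFD without overlap (7.60 to 10.4 CPM, against 10.9 to 16.1 CPM on chow). Krt7, Krt19, Epcam and Cftr overlapped. On that scale the sums of the HuMgat2 diets did not overlap for these lists, while those of the WT diets did. All marker sums are CPM by library totals, without the TMM scaling of the Ugt sums. The TMM factors were 1.05 to 1.13 in HuMgat2 HFD libraries and 0.794 in HuMgat2 chow library 13. Whether the marker gaps hold on the TMM scale was not tested. The part of these marker lists in the results below was not tested.

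**Figure D2:**
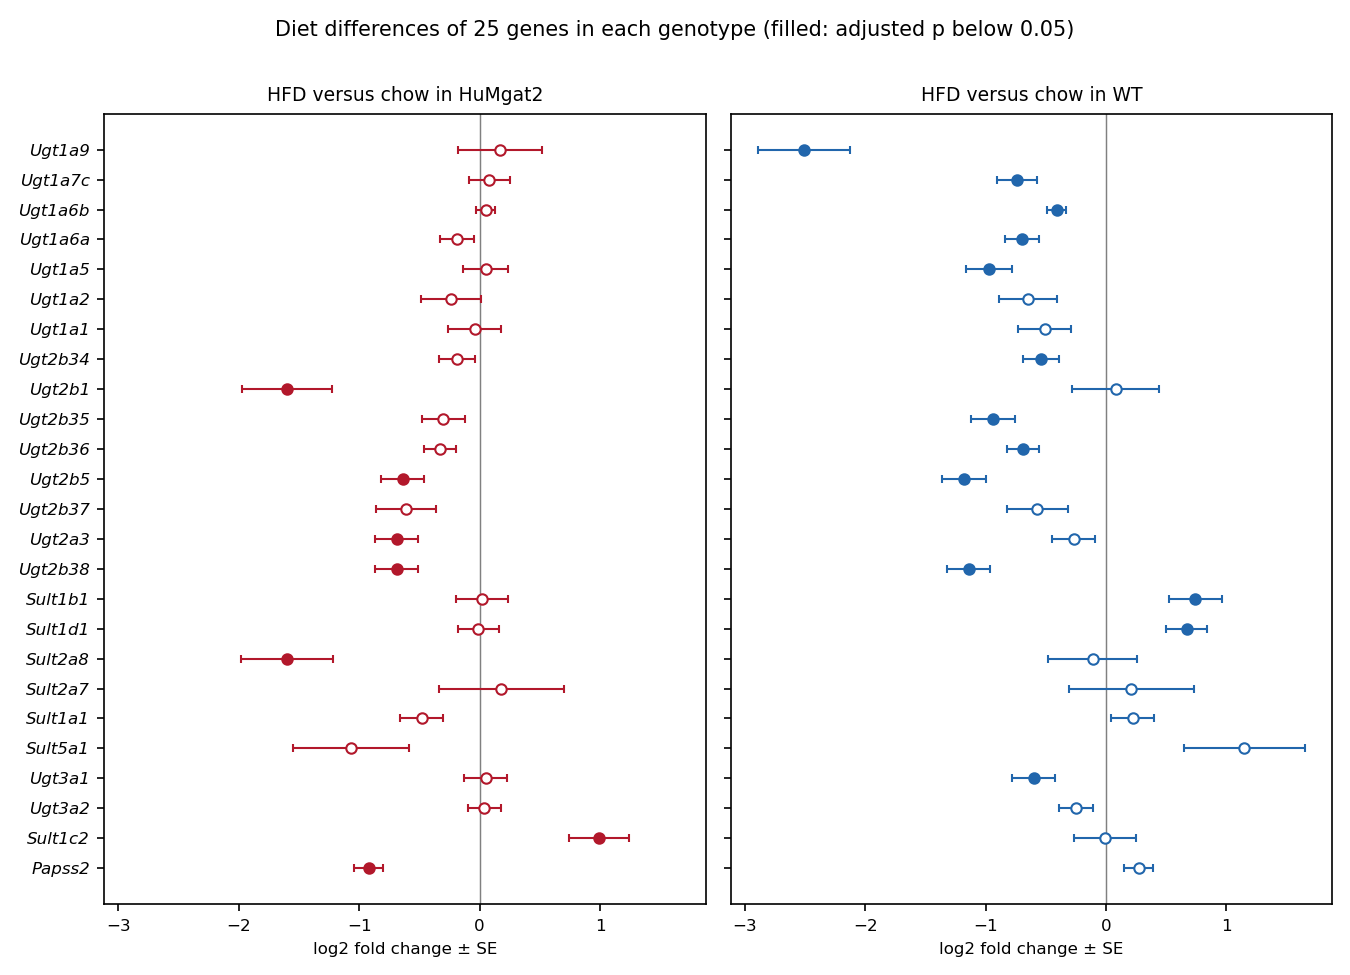
The log2 fold change between HFD and chow of each of the 25 genes (rows) in HuMgat2 (left) and WT (right) livers, 4 libraries per group, with bars of 1 SE; filled points have an adjusted p below 0.05. The Ugt1a genes lie near 0 in HuMgat2 and from -2.51 to -0.41 in WT. Ugt2b1, Sult2a8, Papss2 and Sult5a1, the last of them not called, lie below -0.9 in HuMgat2 alone.

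Genotype was compared on each diet. On HFD, HuMgat2 livers had more RNA of 4 Ugt1a genes, Ugt3a1 and Sult1c2 than WT livers and less of Ugt2b1, Sult1d1, Sult2a8 and Papss2. These were 6 of 25 genes higher and 4 lower, against 7.21% and 7.56% of all tested genes; 1 or 2 were lower when WT HFD library 1 or any 1 HuMgat2 HFD library was left out. The genotypes did not overlap for 9 of the 25 on HFD and 3 on chow, against 21.2% and 6.62% of all. On chow only Papss2 was called, higher in HuMgat2; this was 1 of 25 genes, where 0.266% of all tested genes were called higher and 0.243% lower, and 3 of the 25 were higher and 2 lower at an unadjusted p below 0.05. DESeq2 called 2 on chow and limma voom 1, and edgeR called 0 without WT chow library 5 and 2 without HuMgat2 chow library 14. In the test of the diet difference itself between genotypes, the change on HFD was more positive in HuMgat2 for Ugt1a9, Ugt1a6b and Ugt1a5 and more negative for Papss2, 3 and 1 of 25 genes against 2.61% and 2.26% of all. Without WT HFD library 4 these counts were 4 and 6, against 3.4% and 3% of all. They were 3 and 7 by limma voom, and 13 and 1 with library totals alone. The first count was 1 without HuMgat2 HFD library 10, HuMgat2 chow library 13 or 15 or WT chow library 5, 6 or 7, and the second was 2 or 3 without HuMgat2 chow library 14 or 16, WT HFD library 2 or WT chow library 6. These comparisons share groups of libraries, so a group that is low for a gene enters several of them.

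**Figure D3:**
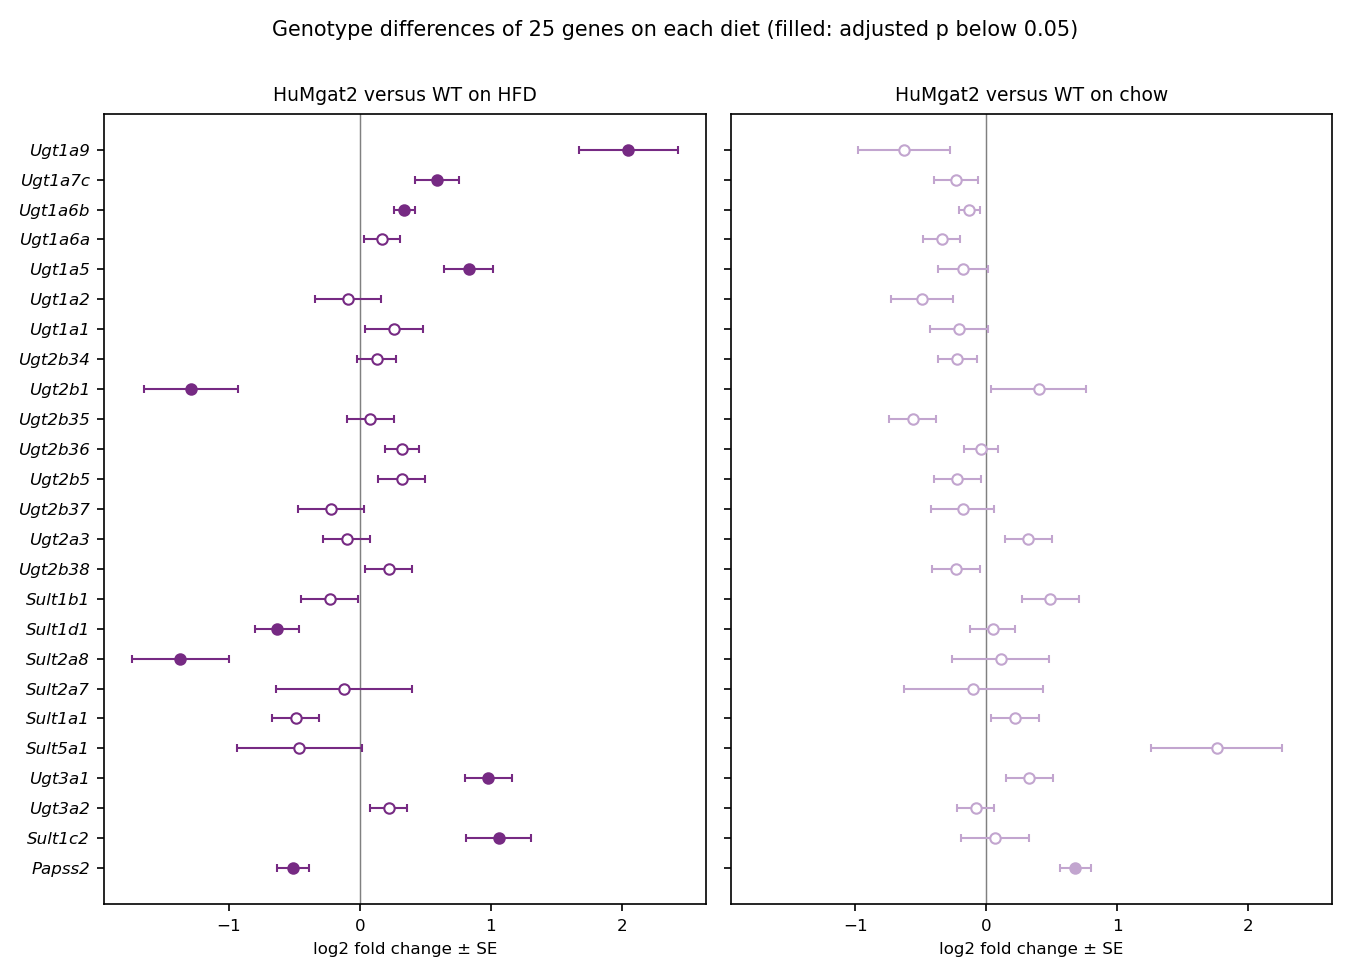
The log2 fold change of HuMgat2 over WT for each of the 25 genes (rows) on HFD (left) and on chow (right), 4 libraries per group, with bars of 1 SE; filled points have an adjusted p below 0.05. Ugt1a9 lies at 2.05 and Ugt2b1 and Sult2a8 at -1.29 and -1.37 on HFD, and Papss2 is the filled point on chow.

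Ugt1a9, Ugt1a7c, Ugt1a6b and Ugt1a5 were lowest in WT HFD livers. In WT, 5 of 7 fell on HFD and 0 rose (0 at an unadjusted p below 0.05, and 0 by DESeq2 and limma voom), with a median log2 change of -0.70 against 0.03 over all genes. In HuMgat2, 0 of 7 were called by edgeR, DESeq2 or limma voom, and 0 had an unadjusted p below 0.05, with a median of 0.05. Shares over all tested genes were 6.74% lower and 8.37% higher in WT, and 6.4% lower and 7.56% higher in HuMgat2. Ugt1a9, whose human counterpart conjugates phenols, had 12.25, 15.85, 17.4 and 29.5 CPM in HuMgat2 HFD livers, 13.4, 29.1, 12.25 and 11.2 CPM in HuMgat2 chow livers, 4.59, 4.67, 6.93 and 1.27 CPM in WT HFD livers and 28.8, 23.6, 26.4 and 24.1 CPM in WT chow livers. All 4 WT HFD libraries lay below the other 12, and the HuMgat2 diets overlapped. Its WT diet change was -2.51 ± 0.38 on the log2 scale (SE, adjusted p = 0.000521), 5.69-fold lower on HFD, and -2.25 without library 4. Within the HFD groups the HuMgat2 level was 4.14 times that of WT (log2 2.05 ± 0.38 SE, adjusted p = 0.00192). The diet change in HuMgat2 was 0.17 (95% interval -0.59 to 0.93), and the difference between the genotypes' diet changes was 2.68 ± 0.51 SE (adjusted p = 0.00602). Each of these 3 calls held in every fit that left out 1 library.

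Other Ugt1a genes differed less and in the same libraries. Ugt1a5 had 44.5, 34.4, 26.6 and 48.4 CPM in HuMgat2 HFD livers, 41.6, 28.0, 37.2 and 42.2 CPM in HuMgat2 chow livers, 22.8, 15.9, 26.5 and 21.05 CPM in WT HFD livers and 37.0, 40.7, 38.5 and 52.8 CPM in WT chow livers. It was 1.96-fold lower on HFD in WT (log2 -0.97 ± 0.19 SE, adjusted p = 0.00355) and on HFD its level in HuMgat2 was 1.78 times that in WT (adjusted p = 0.00882). The 4 WT HFD libraries again lay below the other 12, narrowly, with 26.5 CPM in WT HFD library 3 and 26.6 CPM in HuMgat2 HFD library 11. Ugt1a6b, one of the pair of mouse genes whose human counterpart UGT1A6 acts on simple phenols, had 60.6, 70.1, 69.2 and 61.0 CPM in HuMgat2 HFD livers, 61.5, 63.9, 59.9 and 66.2 CPM in HuMgat2 chow livers, 55.0, 54.8, 51.3 and 45.4 CPM in WT HFD livers and 72.3, 66.9, 72.2 and 63.0 CPM in WT chow livers. Its spread within groups was small, and it fell by 0.41 ± 0.08 SE on the log2 scale on HFD in WT (adjusted p = 0.00435), every WT HFD library below the other 12. The differences between the genotypes' diet changes were 1.02 ± 0.27 SE for Ugt1a5 (adjusted p = 0.0398) and 0.46 ± 0.12 SE for Ugt1a6b (adjusted p = 0.0339), and these calls were lost in 12 and 8 of the 16 fits that left out 1 library.

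Ugt1a6a, the other gene of that pair, had 19.2, 20.9, 22.6 and 19.2 CPM in HuMgat2 HFD livers, 25.7, 19.5, 25.3 and 23.2 CPM in HuMgat2 chow livers, 23.6, 16.1, 18.1 and 14.9 CPM in WT HFD livers and 26.8, 35.7, 27.1 and 29.0 CPM in WT chow livers. WT chow was the high group, without overlap with any other, and the WT diet change was -0.70 ± 0.14 SE (adjusted p = 0.00316). On HFD the difference between genotypes in Ugt1a6a was not called (log2 0.17, 95% interval -0.13 to 0.47). Ugt1a7c averaged 9.93 ± 1.55 CPM in HuMgat2 HFD livers, 9.39 ± 0.91 CPM in HuMgat2 chow livers, 6.51 ± 1.81 CPM in WT HFD livers and 10.98 ± 0.84 CPM in WT chow livers (SD, n = 4 each). It fell 1.67-fold on HFD in WT (adjusted p = 0.00908), and on HFD its HuMgat2 level was 1.51 times that of WT (adjusted p = 0.0292, lost without HuMgat2 HFD library 10 or 11). Ugt1a1, the bilirubin enzyme, and Ugt1a2 were called in no comparison. Ugt1a1 averaged 121 ± 21.9 CPM in HuMgat2 HFD livers, 124 ± 32.7 CPM in HuMgat2 chow livers, 101 ± 26.6 CPM in WT HFD livers and 144 ± 32.8 CPM in WT chow livers, with a WT diet change of -0.51 (95% interval -0.99 to -0.03, adjusted p = 0.13).

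Of the Ugt2 genes, which act mainly on steroids and bile acids, 4 of 8 fell on HFD in HuMgat2 (median log2 change -0.62), against 6.4% of all tested genes. In WT 5 of 8 fell (median -0.63), against 6.74% of all. Ugt2b5 and Ugt2b38 fell in both genotypes. In either genotype 0 rose (0 at an unadjusted p below 0.05, and 0 by DESeq2 and limma voom), where 7.56% and 8.37% of all rose. The HuMgat2 count was 2 without HuMgat2 HFD library 11 or HuMgat2 chow library 16. Ugt2b5, the most abundant, had 504, 521, 443 and 489.8 CPM in HuMgat2 HFD livers, 752, 712, 678.05 and 915 CPM in HuMgat2 chow livers, 523.35, 405.75, 403 and 235 CPM in WT HFD livers and 952, 819.9, 951.5 and 827 CPM in WT chow livers. Each HFD library lay below every chow library of both genotypes. Ugt2b5 was 1.56-fold lower on HFD in HuMgat2 (log2 -0.64 ± 0.18 SE, adjusted p = 0.0252) and 2.27-fold lower in WT (log2 -1.18 ± 0.18 SE, adjusted p = 0.000633). The HuMgat2 call of Ugt2b5 was lost in 4 of the fits that left out 1 library (HuMgat2 HFD libraries 10, 11 and 12, HuMgat2 chow library 16), and the difference between the 2 diet changes was not called (log2 0.54 ± 0.26 SE, adjusted p = 0.28).

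Ugt2b38, its near copy, had 103, 108, 91.1 and 103 CPM in HuMgat2 HFD livers, 169.7, 142, 140.55 and 199.7 CPM in HuMgat2 chow livers, 113, 97.01, 88.6 and 49.5 CPM in WT HFD livers and 209, 179, 204 and 175 CPM in WT chow livers. It fell by 0.69 ± 0.18 SE on the log2 scale in HuMgat2 (adjusted p = 0.0182; lost without HuMgat2 HFD library 11 or HuMgat2 chow library 16) and by 1.14 ± 0.18 SE in WT (adjusted p = 0.000858). Its HFD and chow libraries did not overlap, as in Ugt2b5. Ugt2b36 had 337, 342, 336 and 342 CPM in HuMgat2 HFD livers, 416, 425, 373 and 487.05 CPM in HuMgat2 chow livers, 333, 249.6, 284 and 222 CPM in WT HFD livers and 472, 398.65, 479.9 and 403 CPM in WT chow livers. The diets did not overlap in either genotype; the change was called in WT (log2 -0.69 ± 0.13 SE, adjusted p = 0.00205), and in HuMgat2 it was -0.33 ± 0.13 SE with an adjusted p of 0.099, or 0.0441 without WT HFD library 4. Ugt2b35 had 119, 164, 154 and 159 CPM in HuMgat2 HFD livers, 165, 164, 169 and 234 CPM in HuMgat2 chow livers, 156, 163, 156 and 89.2 CPM in WT HFD livers and 333, 250.1, 277 and 222 CPM in WT chow livers. WT chow stood apart from WT HFD, 1.92-fold lower on HFD (adjusted p = 0.00319), and the HuMgat2 change of -0.30 was not called (95% interval -0.70 to 0.10), though the libraries of the diets did not overlap there. Ugt2b34 averaged 363 ± 23.7 CPM in HuMgat2 HFD livers, 415 ± 54.5 CPM in HuMgat2 chow livers, 332 ± 79.3 CPM in WT HFD livers and 483 ± 39.9 CPM in WT chow livers (SD, n = 4 each), and fell 1.45-fold in WT (adjusted p = 0.0233), a call lost without WT HFD library 2 or WT chow library 5 or 7.

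Ugt2b1 and Ugt2a3 were called with diet in HuMgat2 and not in WT. Ugt2b1, whose rat counterpart conjugates bisphenol A and steroids, had 180.2, 191, 153 and 175.85 CPM in HuMgat2 HFD livers, 595, 358, 505 and 671 CPM in HuMgat2 chow livers, 714, 461, 437 and 99.1 CPM in WT HFD livers and 407, 429, 399.9 and 382 CPM in WT chow livers. The HuMgat2 HFD libraries were tightly grouped below all HuMgat2 chow libraries, and the WT HFD libraries spread over the whole range, with library 4 below and the other 3 above all WT chow libraries. The HuMgat2 change was -1.60 ± 0.37 SE (adjusted p = 0.00758, 3.04-fold lower on HFD), and it held in every fit that left out 1 library. In WT the change was 0.08 ± 0.36 SE (adjusted p = 0.911), or 0.41 without library 4 (adjusted p = 0.153). The difference between the diet changes was -1.69 ± 0.51 SE with all libraries (adjusted p = 0.0699), and was called without WT HFD library 4 at -2.01 (adjusted p = 0.000134) and without HuMgat2 chow library 14. Within the HFD groups Ugt2b1 was 2.44-fold lower in HuMgat2 livers than in WT livers (adjusted p = 0.0255; 2.35e-05 without library 4; the call was lost without any 1 HuMgat2 HFD library or WT HFD library 1 or 2).

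Ugt2a3, whose human counterpart conjugates bile acids, had 171, 149.65, 153 and 151 CPM in HuMgat2 HFD livers, 296, 251.35, 243 and 218.25 CPM in HuMgat2 chow livers, 206, 179.8, 188 and 95.4 CPM in WT HFD livers and 178, 182, 214.45 and 232 CPM in WT chow livers. HuMgat2 HFD lay below HuMgat2 chow in every library, while the WT diets overlapped. Its HuMgat2 change was -0.69 ± 0.18 SE (adjusted p = 0.0157, lost without HuMgat2 chow library 13) and its WT change -0.27 ± 0.18 SE (adjusted p = 0.339). The difference between them was -0.42 ± 0.25 SE (adjusted p = 0.402), or -0.61 without WT HFD library 4 (adjusted p = 0.0255). Ugt2b37, at 1.51 to 4.91 CPM over all libraries, was called in no comparison, with diet changes of -0.61 (95% interval -1.15 to -0.07) in HuMgat2 and -0.57 (-1.11 to -0.04) in WT.

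Of the Ugt3a genes, whose human counterparts use sugar donors other than UDP-glucuronic acid, Ugt3a1 (chromosome 15, 9276974 to 9315118) differed between genotypes on HFD. It had 208, 178, 184 and 155 CPM in HuMgat2 HFD livers, 207, 139, 177 and 178 CPM in HuMgat2 chow livers, 118, 100.4, 91.5 and 57.4 CPM in WT HFD livers and 127, 117, 146 and 168 CPM in WT chow livers. Every HuMgat2 HFD library lay above every WT HFD library, 1.97-fold on average (log2 0.98 ± 0.18 SE, adjusted p = 0.00222), and the call held in every fit that left out 1 library. Its fall on HFD in WT (log2 -0.60 ± 0.18 SE, adjusted p = 0.0347) was lost without any 1 of WT HFD libraries 3 and 4 and WT chow libraries 5, 7 and 8, and the difference between the diet changes was not called (log2 0.65 ± 0.26 SE, adjusted p = 0.177). Ugt3a2 ranged from 222.75 to 389.9 CPM and was called in no comparison.

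**Figure D4:**
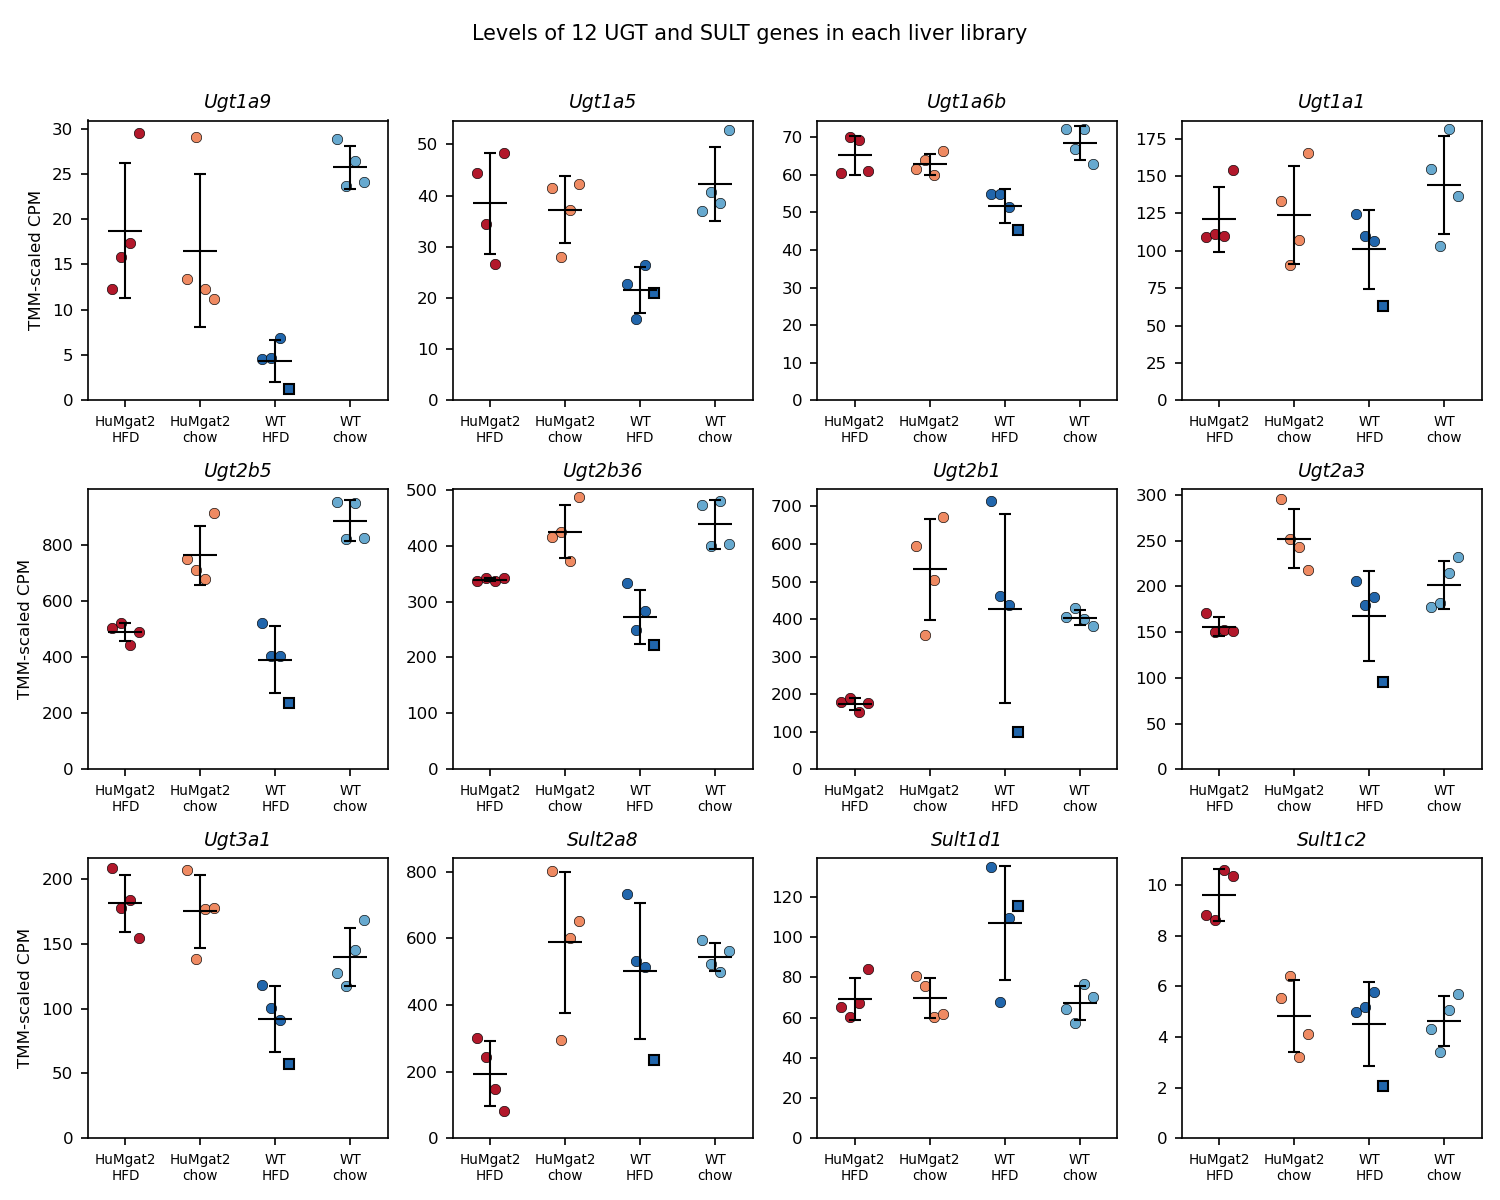
TMM-scaled CPM of 12 Ugt and Sult genes in each library, grouped as HuMgat2 HFD, HuMgat2 chow, WT HFD and WT chow, with black bars for the mean and SD of 4 libraries; the square marks WT HFD library 4. The 4 WT HFD points lie lowest for Ugt1a9, Ugt1a5 and Ugt1a6b, and the 4 HuMgat2 HFD points lie highest for Sult1c2.

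Of the sulfotransferases, 1 of 7 rose and 1 fell on HFD in HuMgat2, where 7.56% of all tested genes rose and 6.4% fell. Without HuMgat2 chow library 14 or 16, 2 fell. In WT 2 of 7 rose, against 8.37% of all, and 0 fell (0 fell at an unadjusted p below 0.05, and 0 by DESeq2 and limma voom). Sult2a8 (chromosome 7, 14144611 to 14180511), which sulfates bile acids in mouse liver, had 300.3, 245, 148.05 and 82.55 CPM in HuMgat2 HFD livers, 804, 296, 601 and 651 CPM in HuMgat2 chow livers, 732, 531, 515 and 234 CPM in WT HFD livers and 594, 522, 499 and 563 CPM in WT chow livers. HuMgat2 HFD was the low group, overlapping HuMgat2 chow by 1 library on each side. Sult2a8 was 3.03-fold lower on HFD in HuMgat2 (log2 -1.60 ± 0.38 SE, adjusted p = 0.00892), in every fit that left out 1 library. In WT its diet change was -0.11 ± 0.37 SE (adjusted p = 0.877). The difference between the diet changes was -1.48 ± 0.52 SE (adjusted p = 0.124), or -1.72 without WT HFD library 4 (adjusted p = 0.0323). Within the HFD groups Sult2a8 was 2.59-fold lower in HuMgat2 livers than in WT livers (adjusted p = 0.0213, lost without HuMgat2 HFD library 11 or 12 or WT HFD library 1).

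Sult1c2 (chromosome 17, 54136665 to 54153367) was the 1 member that rose on HFD in HuMgat2. Its levels were 8.83, 8.63, 10.6 and 10.35 CPM in HuMgat2 HFD livers, 5.55, 6.41, 3.22 and 4.12 CPM in HuMgat2 chow livers, 4.98, 5.17, 5.79 and 2.07 CPM in WT HFD livers and 4.30, 3.42, 5.08 and 5.68 CPM in WT chow livers. All HuMgat2 HFD libraries lay above the other 12. The rise was 1.98-fold (log2 0.99 ± 0.25 SE, adjusted p = 0.0149, lost without HuMgat2 chow library 15), and on HFD the level in HuMgat2 was 2.09 times that in WT (adjusted p = 0.0103). The difference between the diet changes was 1.00 ± 0.36 SE (adjusted p = 0.139).

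Sult1d1, which sulfates catecholamines in the mouse, and Sult1b1, which acts on thyroid hormones, rose in WT on HFD, next to the Ugt2 genes that fell there. Sult1d1 had 65.15, 60.5, 67.4 and 84.1 CPM in HuMgat2 HFD livers, 80.6, 75.7, 60.5 and 61.8 CPM in HuMgat2 chow livers, 135, 67.7, 109.7 and 116 CPM in WT HFD livers and 64.35, 57.5, 76.9 and 70.5 CPM in WT chow livers. WT HFD was the high group with 1 library inside the range of WT chow. The change was 1.59-fold (log2 0.67 ± 0.17 SE, adjusted p = 0.0163, lost without WT chow library 6). Within the HFD groups Sult1d1 was 1.54-fold lower in HuMgat2 livers than in WT livers (adjusted p = 0.0226, lost without HuMgat2 HFD library 9, 10 or 11 or WT HFD library 1). Sult1b1 averaged 18.5 ± 2.1 CPM in HuMgat2 HFD livers, 18.3 ± 2.8 CPM in HuMgat2 chow livers, 21.5 ± 8.5 CPM in WT HFD livers and 13.0 ± 1.1 CPM in WT chow livers (SD, n = 4 each). WT HFD library 4, at 9.85 CPM, lay below WT chow while the other 3, at 21.6 to 30.0 CPM, lay above it. The WT change of Sult1b1 was 0.74 (adjusted p = 0.034), or 0.97 without library 4 (adjusted p = 0.000159), and the call was lost without any 1 of the other 7 WT libraries. In HuMgat2 the diet changes were -0.01 (95% interval -0.38 to 0.37) for Sult1d1 and 0.02 (-0.46 to 0.50) for Sult1b1.

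The other 3 described Sult genes were called in no comparison. Sult1a1, the main phenol sulfotransferase, averaged 133 ± 22.5 CPM in HuMgat2 HFD livers, 186 ± 47.0 CPM in HuMgat2 chow livers, 186 ± 11.7 CPM in WT HFD livers and 159.6 ± 32.8 CPM in WT chow livers (SD, n = 4 each). On HFD its genotypes did not overlap, with a log2 difference of -0.49 (95% interval -0.87 to -0.10, adjusted p = 0.0734). Sult5a1 ranged from 1.45 to 12.9 CPM and Sult2a7 from 0.71 to 4.13 CPM. The diet changes of Sult5a1 were -1.07 in HuMgat2 (adjusted p = 0.154) and 1.15 in WT (adjusted p = 0.133). The difference between them was -2.22 ± 0.69 SE (adjusted p = 0.0785). DESeq2 and limma voom called that difference, as did edgeR without WT HFD library 4 (adjusted p = 0.0495). On chow its HuMgat2 level was 3.38 times that of WT (adjusted p = 0.16), called by DESeq2 and without HuMgat2 chow library 14. Under the level cut were 19 genes. The nearest above it was Sult2a7, with a mean of 1.44 CPM, and the nearest below was Ugt1a10 at 0.414 CPM. Among those below, Sult1e1, the estrogen sulfotransferase, summed to 88 counts, with 8, 8, 8 and 14 counts in HuMgat2 HFD livers, 0, 1, 2 and 1 in HuMgat2 chow livers, 7, 1, 9 and 28 in WT HFD livers and 0, 1, 0 and 0 in WT chow livers. Summed over all libraries, Ugt1a10 had 143 counts, Ugt1a8 125, Ugt8a 78, Sult6b1 61, Sult3a1 32, Sult4a1 7, Sult2b1 6, Sult2a1 3, Sult2a5 and Sult2a2 2 each and Ugt2a2 1. The remaining 7 (Ugt2a1, Sult6b2, Sult2a4, Sult2a3, Sult2a6, Sult3a2 and Sult1c1) had 0 counts, where 3 counts in a library correspond to 0.116 to 0.241 CPM.

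Papss2 (chromosome 19, 32573190 to 32644587), which makes the sulfate donor PAPS, differed in 4 of the 5 comparisons. It had 114, 96.45, 109 and 119 CPM in HuMgat2 HFD livers, 238, 232, 191 and 171.95 CPM in HuMgat2 chow livers, 175, 144, 155 and 152 CPM in WT HFD livers and 125, 140.75, 111 and 143 CPM in WT chow livers. The order ran from HuMgat2 HFD over WT chow and WT HFD to HuMgat2 chow, and neighbours in that order overlapped except WT chow and WT HFD. Papss2 was 1.9-fold lower on HFD in HuMgat2 (log2 -0.92 ± 0.12 SE, adjusted p = 8.77e-05), while in WT its change was 0.27 ± 0.12 SE (adjusted p = 0.141). The difference between the diet changes was -1.19 ± 0.17 SE (adjusted p = 0.000703), in every fit that left out 1 library. HuMgat2 exceeded WT 1.6-fold on chow (log2 0.68 ± 0.12 SE, adjusted p = 0.00976, lost without WT chow library 5) and was 1.42-fold lower than WT on HFD (log2 -0.51 ± 0.12 SE, adjusted p = 0.00905). Both genotype calls of Papss2 were lost with library totals alone (adjusted p = 0.0819 on chow and 0.0771 on HFD).

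The other PAPS synthase, Papss1, differed in the opposite direction to Papss2 with diet in HuMgat2 and between genotypes on chow. On HFD the genotypes differed in the same direction for both, with both lower in HuMgat2 livers (Papss1 1.49-fold, adjusted p = 0.0141). It had 6.23, 5.93, 6.29 and 5.96 CPM in HuMgat2 HFD livers, 3.81, 4.52, 3.22 and 3.79 CPM in HuMgat2 chow livers, 9.87, 9.76, 10.0 and 6.59 CPM in WT HFD livers and 9.45, 11.3, 8.43 and 11.3 CPM in WT chow livers. On chow it was 2.63-fold lower in HuMgat2 livers than in WT livers (log2 -1.39 ± 0.15 SE, adjusted p = 6.94e-05), and in HuMgat2 it rose 1.58-fold on HFD (adjusted p = 0.00715). Every HuMgat2 library was below every WT library of either diet. The read ratio of Papss2 to Papss1 was therefore 16.3 to 20.0 in HuMgat2 HFD livers and 45.35 to 62.5 in HuMgat2 chow livers, against 14.7 to 23.0 in WT HFD livers and 12.4 to 13.25 in WT chow livers.

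Of 14 tested genes of sulfate and PAPS supply, 3 rose and 1 fell on HFD in HuMgat2 (median log2 change 0.13), where 7.56% of all tested genes rose and 6.4% fell. In WT 2 rose and 1 fell (median 0.14), where 8.37% of all rose and 6.74% fell. The sulfate transporter Slc26a2 rose 1.58-fold in HuMgat2 (adjusted p = 0.00102), and Ethe1, a mitochondrial enzyme of sulfide oxidation, fell 1.57-fold in HuMgat2 (adjusted p = 0.0214, a call lost without HuMgat2 HFD library 10 or 12 or HuMgat2 chow library 14) and 2.22-fold in WT (adjusted p = 0.000695). Slc13a1, a sodium-coupled sulfate carrier, had 0.20 to 1.17 CPM in HuMgat2 HFD livers and 0 to 0.05 CPM in HuMgat2 chow livers, and 2.05 to 6.67 CPM in WT HFD livers against 0 to 0.18 CPM in WT chow livers (adjusted p = 0.0108 and 9.26e-05). On HFD 3 genes of the list were lower in HuMgat2 than in WT, with Papss1 and Slc13a1 first by adjusted p (0.0141 and 0.00101). Ethe1 was the 1 called higher there (1.49-fold, adjusted p = 0.0398), and the list median was 0.07. DESeq2 called 4 higher and 3 lower. The higher count was 4 without WT HFD library 1, and 0 without any 1 HuMgat2 HFD library or WT chow library 5. Papss1 was the 1 called on chow, lower in HuMgat2. Over all tested genes 7.21% were higher and 7.56% lower in HuMgat2 on HFD, and 0.266% and 0.243% on chow.

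Ugdh, which oxidises UDP-glucose to the glucuronic acid donor that UGT enzymes use, was low in WT HFD livers, as Ugt1a9 was. Its levels were 183, 219.98, 221 and 246 CPM in HuMgat2 HFD livers, 161, 202, 167.35 and 202 CPM in HuMgat2 chow livers, 106, 80.6, 92.5 and 69.6 CPM in WT HFD livers and 248, 249, 238 and 258 CPM in WT chow livers. The WT HFD libraries lay below the other 12. The WT fall was 2.85-fold (log2 -1.51 ± 0.13 SE, adjusted p = 7.4e-06), the HuMgat2 level on HFD was 2.49 times that of WT (adjusted p = 7.24e-06), and the difference between the diet changes was 1.76 ± 0.18 SE (adjusted p = 8.35e-05). Of the 9 genes of UDP-glucuronic acid supply, Ugdh was the 1 called in WT, where 2 rose without library 4 and 1 without HuMgat2 chow library 13. In HuMgat2 3 rose on HFD and 0 fell (0 at an unadjusted p below 0.05, and 0 by DESeq2 and limma voom), among them the phosphoglucomutase Pgm2 (1.48-fold) and Ugp2, which makes UDP-glucose (1.9-fold, adjusted p = 0.0375). Over all tested genes 7.56% rose and 6.4% fell in HuMgat2, and 8.37% rose and 6.74% fell in WT.

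**Figure D5:**
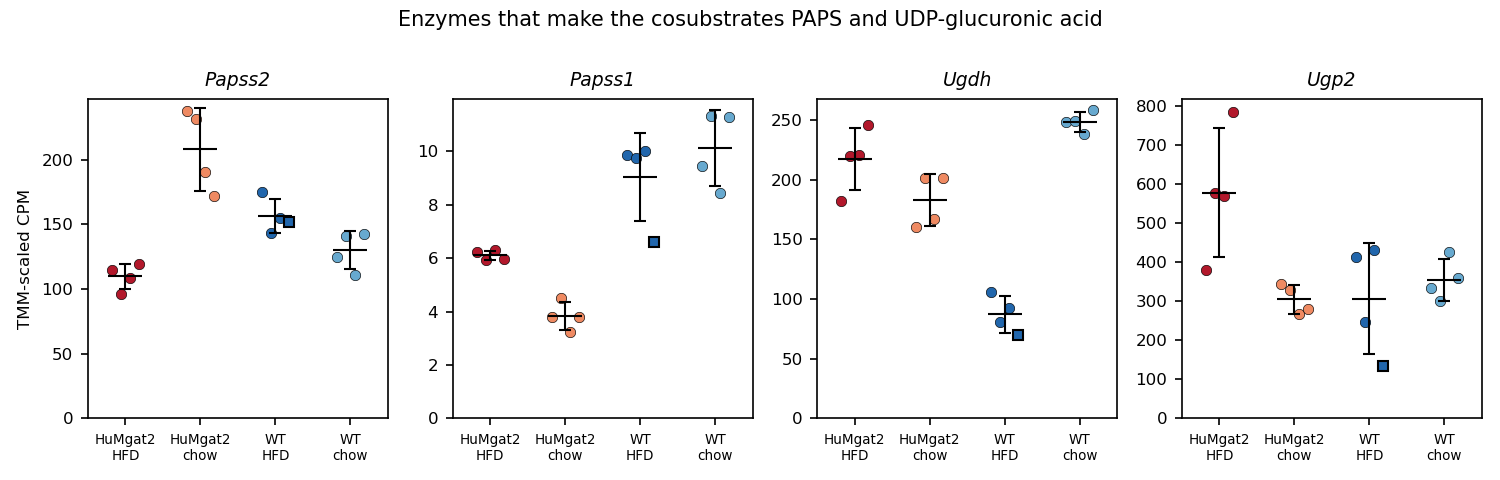
TMM-scaled CPM in each library of Papss2 and Papss1, which make the sulfate donor PAPS, and of Ugdh and Ugp2, which make UDP-glucuronic acid, with black bars for the mean and SD of 4 libraries per group; the square marks WT HFD library 4. Papss2 is lowest in HuMgat2 HFD livers, at 96.45 to 119 CPM, Papss1 is lowest in HuMgat2 chow livers, and Ugdh is lowest in WT HFD livers.

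Of 24 factors known to regulate these enzymes, 3 rose and 2 fell on HFD in HuMgat2 (median log2 change 0.03), where 7.56% of all tested genes rose and 6.4% fell. In WT 4 rose and 3 fell (median -0.06), where 8.37% of all rose and 6.74% fell. In HuMgat2 0 rose and 1 fell without HuMgat2 chow library 14, and 1 rose and 1 fell without HuMgat2 HFD library 10 or 11. There 1 fell without HuMgat2 HFD library 12 or HuMgat2 chow library 16, and 5 rose and 4 fell without WT HFD library 4. Bcl6, a repressor that marks the male pattern of liver expression, fell 7.13-fold in HuMgat2 (adjusted p = 0.00108), to 15.8 ± 2.8 CPM on HFD, against 113 ± 44.5 CPM on chow (SD, n = 4 each). Nfe2l2, which encodes NRF2, rose 1.34-fold on HFD in HuMgat2 (adjusted p = 0.0192) and on HFD its HuMgat2 level was 1.62 times that of WT (adjusted p = 0.000746). Hnf4a, a factor of hepatocyte identity, fell 1.4-fold in HuMgat2 (adjusted p = 0.0304) and 1.46-fold in WT (adjusted p = 0.0176).

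Of 17 other targets of CAR, PXR, AHR and NRF2, 9 fell on HFD in HuMgat2 (median log2 change -0.84), against 6.4% of all tested genes. In WT 10 fell and 1 rose (median -1.35), against 6.74% and 8.37% of all. Without WT HFD library 2 or 3, 2 rose. The 1 that rose with all libraries was Por, which passes electrons to cytochrome P450 enzymes (2.59-fold, adjusted p = 6.74e-05). The CAR target Cyp2b10 fell in both (adjusted p = 1.33e-05 and 3.28e-05), with 0.53 ± 0.51 CPM in HuMgat2 HFD livers against 14.1 ± 4.3 CPM in HuMgat2 chow livers, and with 0.13 ± 0.09 CPM in WT HFD livers against 7.94 ± 2.7 CPM in WT chow livers (SD, n = 4 each). Gclc, an NRF2 target of glutathione synthesis, fell 3.27-fold in WT (adjusted p = 3.28e-05) and its HuMgat2 level on HFD was 2.81 times that of WT (adjusted p = 4.58e-05). Its levels were 439 to 501 CPM in HuMgat2 HFD livers, 381 to 444 CPM in HuMgat2 chow livers, 98.4 to 197 CPM in WT HFD livers and 432 to 619.98 CPM in WT chow livers, so that the WT HFD libraries lay below the other 12, as for Ugdh and Ugt1a9. Between genotypes on HFD 7 of the 17 were higher and 4 lower in HuMgat2, against 7.21% and 7.56% of all tested genes.

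Genes biased to male mouse liver fell on HFD in HuMgat2, 18 of 24 with 0 higher (0 at an unadjusted p below 0.05, and 0 by DESeq2 and limma voom), with a median log2 change of -1.82. Shares over all tested genes were 6.4% lower and 7.56% higher in HuMgat2, and 6.74% lower and 8.37% higher in WT. In WT 1 rose and 4 fell (median -0.13), with 5 rising and 3 falling without WT HFD library 4, and 2 or 3 rising without WT HFD library 3, HuMgat2 HFD library 12 or HuMgat2 chow library 14. Between genotypes on HFD 13 of the 24 were lower in HuMgat2 and 0 higher (1 higher at an unadjusted p below 0.05, 0 by DESeq2 and limma voom), against 7.56% and 7.21% of all. Hsd3b5, a steroid dehydrogenase of male liver, was at 0.21 to 0.53 CPM in HuMgat2 HFD livers and 50.2 to 195 CPM in HuMgat2 chow livers, against 6.59 to 138.15 CPM in WT HFD livers and 106 to 166 CPM in WT chow livers. The 6.59 CPM was that of WT HFD library 4, and the other WT HFD libraries had 101 to 138.15 CPM. Genes biased to female mouse liver went both ways, with 8 of 20 higher and 9 lower on HFD in HuMgat2, against 7.56% and 6.4% of all. In WT 2 were higher and 8 lower (5 lower without WT chow library 5), against 8.37% and 6.74% of all. This list was counted beside the 25 genes because several of them are known to differ between the sexes.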

How the data were processed

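Gene counts of liver RNA were read from 1 table as deposited. Per the labels' protocols, RNA of 15 mg of liver with an integrity number above 7 was depleted of ribosomal RNA and made into stranded libraries; per the submitters' processing notes, STAR 2.7 and DESeq2 1.26.0 were used by the authors on mm39. Per the file headers, the authors' raw counts come from featureCounts 2.0.1, per gene name of Ensembl 103, for read pairs, with no strand option. The table's gene length, deposited with the counts, scaled levels per kb (an exon length, of unit other). The 64 records are 4 per library, and each of the 16 libraries was used once.

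Counts were tested in R 4.3.3 with the edgeR 4.0.16 quasi-likelihood test (TMM scaling, filterByExpr, 1 fit of the 4 groups, two-sided, Benjamini-Hochberg adjustment over 17318 genes). The SE is the log2 change divided by the square root of F, and intervals are 95%, unadjusted and taken with the 12 residual degrees of freedom. The fit was tested on simulated data. Values per library are given for genes called in at least 1 of 5 comparisons (up to 8 per comparison by adjusted p) and Papss2, and up to 4 called genes per list and comparison could be named; the counts of Sult1e1 per library and Hnf4a in WT were added after their values were seen. The genes described and the 8 lists of other genes were chosen with earlier results of these data known. Slco1a1, Bcl6 and Cux2 are each in 2 lists, and Impad1 and Sts were not analysed here; some called list genes are not reported here. The results were also computed with DESeq2 1.42.0, with edgeR on DESeq2 size factors, with limma 3.58.1 voom (sample quality weights), without a filter or with a floor of 1 CPM on the mean, from the 2 groups of a comparison alone, without hemoglobin, ribosomal RNA and mitochondrial genes, without each library in turn, and, chosen after seeing the data, library totals alone in place of TMM. The 3 counts given as CPM for genes without counts mark a scale and entered no test.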

Additional observations from a re-analysis of the deposited data

Results flagged for a closer look

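In 9 of the 100 groups of 4 libraries examined, 1 library lay far from the other 3; chance alone gives about 1 in 20 groups. WT HFD library 4 accounted for 3 of them: Ugt1a7c at 3.81 CPM (7.08 to 7.62 CPM in the others), Ugt2b35 at 89.2 CPM (155.79 to 163 CPM) and Sult2a7 at 4.13 CPM (0.71 to 1.03 CPM). Among HuMgat2 HFD livers, Ugt1a1 stood at 154 CPM in library 12 (109.39 to 111 CPM in the others), Ugt2a3 at 171 CPM in library 9 (149.65 to 153 CPM) and Sult5a1 at 5.36 CPM in library 10 (3.01 to 3.10 CPM). Among HuMgat2 chow livers, Ugt1a9 stood at 29.1 CPM in library 14 (11.2 to 13.4 CPM in the others) and Ugt2b35 at 234 CPM in library 16 (164 to 169 CPM). Sult5a1 had 4.40 CPM in WT chow library 6, against 1.45 to 1.58 CPM in the other WT chow livers.

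The diet change differed between HuMgat2 and WT, by the test of that difference, for Ugt1a9 (log2 2.68), Ugt1a5 (1.02), Ugt1a6b (0.46) and Papss2 (-1.19).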

How the results depend on the processing

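No paired analysis was possible because the groups share no replicate numbers: libraries are numbered 1 to 16. The 35 calls made for the 25 genes were recomputed, and calls gained under an alternative are not in this tally. Of 276 values under alternatives other than leaving out a library, 259 kept their direction and the call, 17 lost the call and 0 reversed. Of 560 values with 1 library left out, 499 kept both, 61 lost the call and 0 reversed. The number of genes called with diet in HuMgat2 was 7, with 4 by library totals alone and 5 to 8 without 1 library; in WT it was 13, and 10 to 13 without 1 library. On HFD between genotypes it was 10, and 6 to 11 without 1 library. On chow it was 1, with 2 by DESeq2, 0 with library totals alone and 0 to 2 without 1 library. For the difference between the diet changes it was 4, with 10 by limma voom, 14 (13 higher, 1 lower) with library totals alone and 2 to 10 without 1 library; without WT HFD library 4 it was 10, with 4 higher and 6 lower. Library totals alone moved the median log2 change of all genes to between -0.146 and 0.279, against -0.047 to 0.034 as reported. With it the HuMgat2 diet calls of Ugt2b5, Ugt2b38 and Ugt2a3, the Sult1b1 call in WT, and the genotype calls of Sult1d1 on HFD and of Papss2 on both diets were lost. From the 2 groups compared alone, 8 calls were lost (in WT with diet Ugt2b34, Ugt3a1, Sult1b1 and Sult1d1; on HFD between genotypes Ugt1a7c, Ugt2b1, Sult1d1 and Sult2a8). The cause was not tested. Of the low genes, Sult2a7 and Sult5a1 had SEs of 0.48 to 0.75, so only large changes could be called for them. The SEs of Ugt1a2 and Ugt2b37, also low, were 0.24 to 0.35, below the 0.36 to 0.51 of the abundant Ugt2b1.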

Other observations

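Genes around the conjugation step that the text has not yet described differed in a few members. Of 5 tested hydrolases that undo conjugation or serve them, the lysosomal glucuronidase Gusb (1.3-fold, adjusted p = 0.0102) and the arylsulfatase Arsb (1.32-fold, adjusted p = 0.0194) rose on HFD in HuMgat2 and 0 fell, while in WT 0 were called by edgeR, DESeq2 or limma voom and 0 had an unadjusted p below 0.05. The HuMgat2 count was 1 without HuMgat2 HFD library 10 or 12 or HuMgat2 chow library 16. Over all tested genes 7.56% rose and 6.4% fell in HuMgat2, and 8.37% rose and 6.74% fell in WT.

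Of 12 transporters of conjugates and bile salts, 2 fell on HFD in HuMgat2 and 1 rose, against 6.4% and 7.56% of all tested genes. The 1 that rose was the efflux pump Abcb1a (1.9-fold), a call lost without HuMgat2 HFD library 12 or HuMgat2 chow library 13, 15 or 16. Without HuMgat2 chow library 14 or WT HFD library 4, 2 rose. In WT 4 fell, against 6.74% of all, and 1 fell without WT chow library 5. Abcb11, the bile salt export pump, fell in both, 2.0-fold in HuMgat2 (360.2 ± 34.9 CPM on HFD and 719.96 ± 68.6 CPM on chow, SD, n = 4 each; adjusted p = 0.000139) and 1.67-fold in WT (421 ± 80.2 CPM on HFD and 702 ± 43.0 CPM on chow; adjusted p = 0.00205). Slco1a1, an uptake carrier of organic anions and sulfated steroids that is also in the male list, was at 6.08 to 46.7 CPM in HuMgat2 HFD livers and 299 to 632 CPM in HuMgat2 chow livers, against 43.9 to 572 CPM in WT HFD livers and 511 to 619.9 CPM in WT chow livers. The 43.9 CPM was that of WT HFD library 4, and the other WT HFD libraries had 473 to 572 CPM. In WT the basolateral efflux pumps Abcc3 (1.82-fold, adjusted p = 0.0197) and Abcc4 (2.16-fold, adjusted p = 0.0196) and the uptake carrier Slco1a4 (3.16-fold, adjusted p = 0.0244) also fell, and the difference between the diet changes was called for Slco1a1 (log2 -4.09 ± 0.91 SE, adjusted p = 0.0153) and Abcc4 (1.88 ± 0.42 SE, adjusted p = 0.0155).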
